A study of Danio rerio with 18 samples.

Results

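Whole zebrafish embryos lacking functional Sox10 were compared with wild-type embryos at 45 h post-fertilization (hpf), by RNAseq of pooled animals. This comparison used 6 of the 18 libraries of the series, 3 from sox10 mutants and 3 from wild types, and every gene of the 45 hpf abundance table was kept after lines that repeated a gene identifier were dropped. The mutants carried the sox10 ci3020 allele, in which the first coding exon and part of the untranslated leader are deleted. That exon encodes part of the HMG domain, which binds DNA, and the domain for homodimerization. Mutant pools held 10, 15 and 15 embryos and wild-type pools held 10, 20 and 25 embryos, so each library is an average over animals. The lines were kept as heterozygotes, and the methods describe the controls of the 4 dpf experiment as wild types from related crosses. The same wording is not given for 45 hpf. The study asked how loss of Sox10 affects the start of bone mineralization. The other 12 libraries are labelled 4 and 7 days post-fertilization (dpf), and the values deposited for both labels are the same. Those values were used once, as 6 larval libraries, and enter only the comparison of stages.

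Sox10 is an HMG-box transcription factor of the neural crest, a migratory cell population that gives rise to pigment cells, peripheral glia, sensory, sympathetic and enteric neurons and much of the head skeleton. In zebrafish, Sox10 is needed for the non-skeletal crest derivatives, and embryos without it lack most body pigment cells, namely the black melanophores, the yellow xanthophores and the silvery iridophores. Sox10 is also expressed in the otic vesicle, the forerunner of the inner ear, and in oligodendrocytes.

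The table held 25896 lines and 25581 different genes. Its values were in TPM, a length-corrected unit that records each transcript's share of a library. Read counts and depth are not recoverable from it. An SD given below is the spread among the 3 libraries of a genotype. The SE of a log2 fold change comes from a linear model fitted with limma. It pools the groups fitted and draws each gene's variance towards a trend over all genes fitted. The labels call the libraries biological replicates. Before testing, each library was divided by a scale factor, the median over genes of the ratio of its value to the gene's geometric mean. The factors were 1.11, 0.919 and 0.730 in the mutants and 1.009, 1.22 and 1.14 in the wild types. This scaling moved the median log2 fold change of all tested genes to 0.0020, against -0.25 in the values as deposited, so the directions of weak changes are given below relative to that shift. Mutant replicate 3 stood apart in composition, with 11.5% of its TPM in the unnamed gene ENSDARG00000111458, against 1.69% and 0.986% in the other mutants and 2.93%, 1.17% and 0.848% in the wild types. The number of genes with at least 1 TPM lay between 15204 and 17119 in mutants and between 16664 and 17455 in wild types. On the first principal component, which held 56.4% of the variance, mutant replicate 1 lay at -0.07, between mutant replicates 2 and 3 at -25.3 and -40.0 and the wild types at 19.3 to 24.5. The plot of the first 2 components shows the same order.

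**Figure D1:**
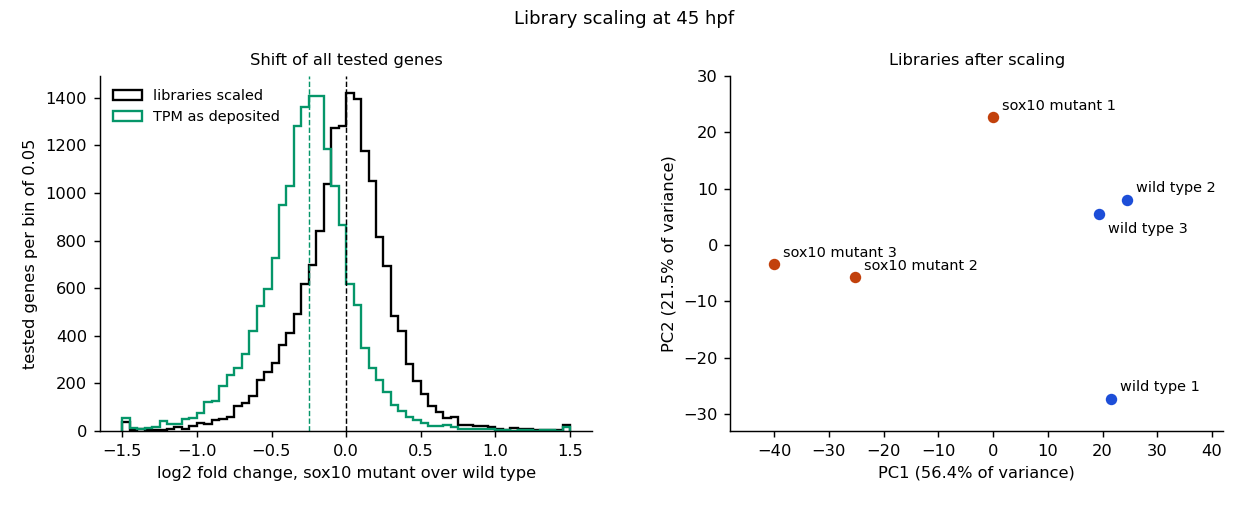
Library scaling at 45 hpf. The left panel is a histogram of log2 fold changes (sox10 mutant over wild type) of the 17043 tested genes before and after scaling, with medians of -0.25 as deposited and 0.0020 scaled, and the right panel places the 6 libraries on principal components 1 and 2 (56.4% and 21.5% of the variance), where mutant replicate 1 is the mutant nearest to the wild types on component 1. Genes beyond either end of the histogram are counted in its outermost bins.

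A gene was tested if 3 or more libraries reached 1 TPM, which 17043 genes did. In sox10 mutants 80 of these were lower and 26 higher, by 1.25-fold or more and with a limma adjusted P no greater than 0.05. Genes past both thresholds are called lower or higher below. The background rate was thus 0.469% of tested genes called lower and 0.153% called higher. In the values as deposited the split was 85 lower and 10 higher, and 65 of the lower and 5 of the higher genes were shared with the scaled fit. Before adjustment, P under 0.05 was reached by 2032 genes in the lower and 1956 in the higher direction. Among all tested genes, 13.8% had all 3 mutant libraries below all 3 wild-type libraries and 15.4% had all 3 above, and each of the 106 called genes belonged to these. The falls were larger than the rises. Called falls had a median log2 fold change of -1.13 and reached -6.69, while called rises had a median of 0.87 and reached 1.66. A fall of 1 or more on the log2 scale was reached by 57 genes and a rise of that size by 8. All fold changes are on the log2(scaled TPM + 1) scale, which understates changes of genes near 0 TPM.

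The counts depended on single libraries. Leaving out mutant replicate 1 gave 1956 lower and 1107 higher genes. Leaving out mutant replicate 2 or 3 gave 40 and 44 lower and 1 and 2 higher genes. Leaving out wild-type replicates 1, 2 and 3 gave 13, 11 and 11 lower and 2, 1 and 0 higher genes, partly because a gene near 0 in mutants no longer reached 1 TPM in 3 libraries. With the 17043 genes held fixed, an alternative added after the data were seen, leaving out each wild type gave 41, 30 and 35 lower and 7, 1 and 0 higher genes. In that alternative 28 of the 80 falls were called without any 1 of the 6 libraries, and none of the 26 rises was.

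sox10 itself (ENSDARG00000077467) had 10.1, 9.95 and 9.05 scaled TPM in the 3 mutant libraries, against 9.38, 11.5 and 10.26 scaled TPM in the wild types. The groups overlapped, with a log2 fold change of -0.09 ± 0.10 (SE; limma adjusted P 0.61; two-sided exact permutation p 0.4, where 0.1 is the smallest that 3 against 3 allows). The values sum reads over the whole gene, most of which the ci3020 deletion leaves in place, so this level does not check the genotype labels.

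Genes of the crest regulator list were mostly little changed in whole embryos, with 2 of 16 tested members lower, none higher and a median of -0.07. The list is not limited to crest cells, since sox10, for example, is also expressed in the otic vesicle. A change in early crest cells was thus not tested separately. crestin, a transcript that marks premigratory and migrating crest in zebrafish, had 2.49, 2.91 and 2.57 scaled TPM in mutants, against 8.78, 9.15 and 9.44 in wild types. No mutant library came near a wild-type one, and the log2 fold change was -1.47 ± 0.09 (limma adjusted P 0.00059). ednrba, an endothelin receptor of crest-derived pigment cells, had 0.21, 0.16 and 0.06 scaled TPM in mutants, against 1.03, 2.37 and 1.70 in wild types. Its fall of 1.21 on the log2 scale only just passed the threshold (limma adjusted P 0.0496) and was lost under 2 of 3 other scalings. The transcription factor foxd3 had 15.3, 12.6 and 14.2 scaled TPM in mutants and 16.2, 17.7 and 17.4 in wild types. Its groups did not overlap, but it did not pass (log2 fold change -0.27, limma adjusted P 0.16). snai2 and twist1a were at -0.01 and 0.09, and tfap2a at 0.50 (limma adjusted P 0.12). In whole embryos, fewer cells of a type and less RNA per cell cannot be told apart, here and in all results that follow.

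Xanthophore genes held the most calls of any list. Of 19 tested members, 11 were lower and none higher, and the list median was -1.002, beside 0.0020 for all tested genes. All lists were chosen with earlier results of these data known, so their counts are not independent support. The called members slc22a7a, bscl2l, aox5, slc2a15a, ednrba and xdh reached 1 TPM in the wild types only. Such genes could enter the test only by being lower in mutants. The plot of pigment genes by library shows the separation for single genes.

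gch2, the GTP cyclohydrolase that opens the pathway to yellow pteridine pigments, had 1.93, 2.01 and 1.92 scaled TPM in mutants, against 74.3, 77.7 and 62.9 in wild types. The mean was 1.95 ± 0.05 in mutants and 71.7 ± 7.76 in wild types (SD, n = 3 each), 36.7-fold lower, with a log2 fold change of -4.62 ± 0.10 (limma adjusted P 1.2e-06). PTS, the gene of 6-pyruvoyltetrahydropterin synthase that acts next in the same pathway, carries no symbol in the table and was matched by its reference name. It had 1.73, 3.35 and 2.105 scaled TPM in mutants, against 56.5, 59.17 and 46.2 in wild types, and a log2 fold change of -4.04 ± 0.18 (limma adjusted P 8.4e-05). Both transcripts were thus at a small remainder of the wild-type level in each mutant pool. Genes of later and side steps of pteridine metabolism followed. aox5, an aldehyde oxidase gene typical of xanthophores, had 0.07, 0.09 and 0.17 scaled TPM in mutants and 6.39, 5.66 and 5.64 in wild types (log2 fold change -2.64 ± 0.10, limma adjusted P 5.4e-05). Its mean was 54.5-fold lower in mutants, which the log2 scale understates at so low a level. xdh, the xanthine dehydrogenase gene, averaged 0.050 ± 0.034 scaled TPM in mutants and 0.936 ± 0.056 in wild types (SD, n = 3 each) and was lower by a log2 fold change of -0.88 (limma adjusted P 0.015), while sprb, a sepiapterin reductase gene, at -0.58 (limma adjusted P 0.089), and pcbd1, which recycles the pterin cofactor, at -0.34 (limma adjusted P 0.17), did not pass.

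Sugar transporter family genes of the xanthophore list fell as well. slc2a11b, which pigment cells of medaka need for yellow coloration, had 0.96, 1.39 and 1.18 scaled TPM in mutants, against 13.4, 12.2 and 12.0 in wild types (log2 fold change -2.64 ± 0.11, limma adjusted P 6.2e-05). slc2a15a and slc2a15b had log2 fold changes of -1.98 and -1.002 (limma adjusted P 0.00022 and 0.014). The organic anion transporter gene slc22a7a was at -2.93, the seipin-like bscl2l at -2.89 and the carotene-cleaving oxygenase bco1 at -1.004, all called. pax7a and pax7b, transcription factors of xanthophore precursors that are also expressed in muscle and brain, were at -0.33 and -0.29 and did not pass (limma adjusted P 0.33 and 0.29).

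**Figure D2:**
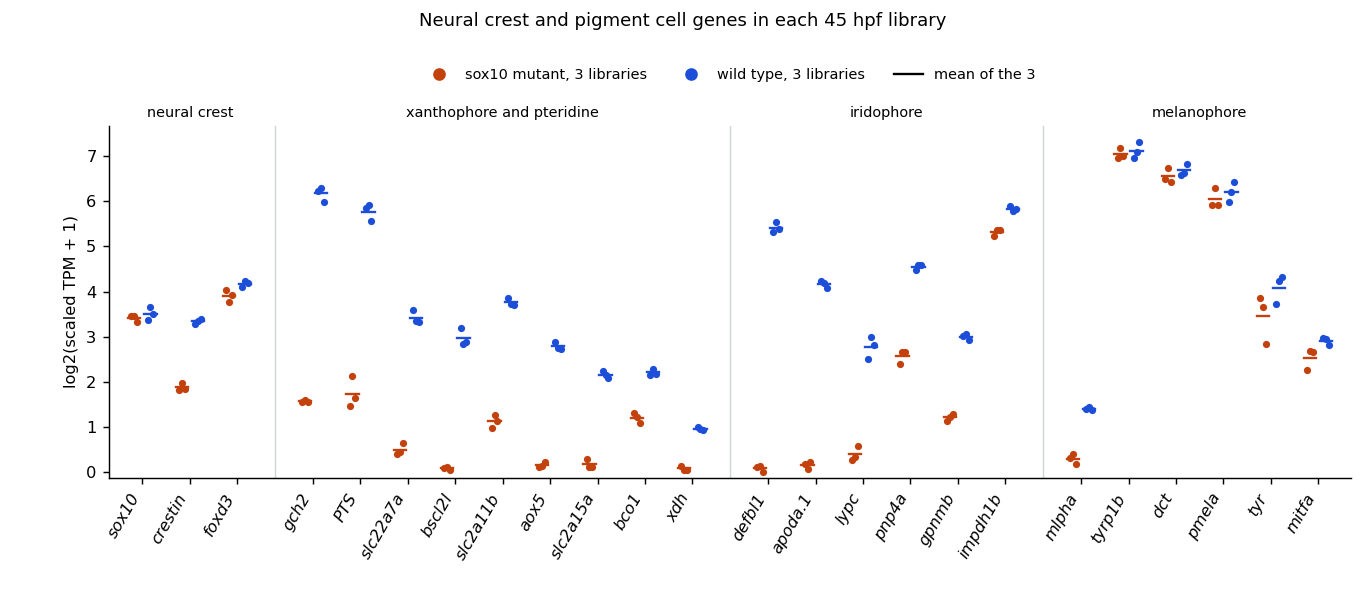
Pigment cell genes in each 45 hpf library. Points give log2(scaled TPM + 1) of the 3 sox10 mutant and the 3 wild-type libraries and bars their means. gch2, aox5, defbl1 and apoda.1 show wide gaps with all mutant points below, while the melanin genes dct and tyrp1b overlap between genotypes.

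Iridophore genes fell alongside. Of 16 tested members, 8 were lower and none higher, all 16 had a negative log2 fold change, and the median was -0.97. The called members defbl1, apoda.1, lypc, fhl2b and ednrba reached 1 TPM in the wild types only. defbl1, a beta-defensin-like gene expressed by iridophores, had 0.08, 0.09 and 0.00 scaled TPM in mutants, against 38.9, 45.9 and 40.7 in wild types (log2 fold change -5.34 ± 0.10, limma adjusted P 9.0e-07). apoda.1, an apolipoprotein D gene of the same cells, had 0.12, 0.04 and 0.17 scaled TPM in mutants and 17.8, 17.3 and 15.8 in wild types (log2 fold change -4.02 ± 0.10, limma adjusted P 2.9e-06). These 2 transcripts were near 0 in each mutant pool. pnp4a, a purine nucleoside phosphorylase gene that marks the lineage early, was retained at 4.26, 5.28 and 5.33 scaled TPM in mutants, against 21.1, 23.2 and 23.1 in wild types (log2 fold change -1.98 ± 0.10, limma adjusted P 0.00018). The pigment-cell Ly6 gene lypc was at -2.39, the transmembrane glycoprotein gene gpnmb at -1.79 and the LIM-domain gene fhl2b at -1.06, and all were called. The transcription factor genes of the lineage did not pass. tfec was at -1.04 ± 0.17, alx4b at -0.69 ± 0.11 and alx4a at -0.62 ± 0.14 (limma adjusted P 0.058, 0.051 and 0.099), each with all mutant libraries below all wild-type libraries.

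Iridophores reflect light from guanine crystals, and guanine comes from purine synthesis. Of 17 tested genes of de novo purine synthesis, 2 were lower and none higher, 16 had a negative log2 fold change and the median was -0.42, against -0.71 in the values as deposited. gmps, which makes GMP, had 11.7, 10.28 and 9.40 scaled TPM in mutants and 17.2, 16.6 and 17.9 in wild types (log2 fold change -0.67 ± 0.10, limma adjusted P 0.042). impdh1b, which makes its precursor and also stands in the iridophore list, had 36.7, 40.1 and 40.1 scaled TPM in mutants, against 58.7, 54.1 and 55.9 in wild types (log2 fold change -0.52 ± 0.08, limma adjusted P 0.046). Neither passed in the values as deposited, where atic was the 1 call of the list, and the other 2 scalings called 2 and 5 genes. atic, pfas and gart, enzymes of earlier steps, were at -0.86, -0.63 and -0.46 (limma adjusted P 0.089, 0.058 and 0.086). Among called genes outside the list, uraha, an enzyme of urate breakdown, had 3.48, 3.64 and 2.02 scaled TPM in mutants and 16.9, 22.2 and 19.6 in wild types (log2 fold change -2.36 ± 0.19, limma adjusted P 0.0019). prtfdc1a, a phosphoribosyl transferase gene, and shmt2, which supplies carbon units to purines, were lower by log2 fold changes of -1.35 and -1.01 (limma adjusted P 0.0053 and 0.034). These last 2 were picked after their values were seen. prtfdc1a reached 1 TPM in the wild types only, so it could enter the test only by being lower in mutants.

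Melanophore genes gave few calls, and no test of a difference between lists was run. At an unadjusted limma P under 0.05, 7 of 19 tested members were lower and 1 higher. Over all 17043 tested genes, 2032 were lower and 1956 higher at that P. The log2 fold change was negative for 16 of the 19, with a median of -0.30. By the adjusted P, 1 of the 19 was called lower and none higher. That gene, mlpha, encodes melanophilin, which ties pigment granules to their motor, and had 0.23, 0.31 and 0.13 scaled TPM in mutants, against 1.61, 1.73 and 1.58 in wild types (log2 fold change -1.11 ± 0.11, limma adjusted P 0.0069). It reached 1 TPM in the wild types only, so it could enter the test only by being lower in mutants. mitfa, the transcription factor that specifies melanophores, had 3.76, 5.39 and 5.26 scaled TPM in mutants and 6.77, 6.74 and 6.05 in wild types. Its libraries did not overlap between genotypes, and it did not pass (log2 fold change -0.39 ± 0.14, limma adjusted P 0.16).

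The genes of melanin synthesis gave no call. tyr, the rate-limiting tyrosinase, had 13.4, 11.6 and 6.14 scaled TPM in mutants and 12.1, 17.8 and 19.0 in wild types (log2 fold change -0.64, limma adjusted P 0.22). dct had 89.3, 106 and 85.0 scaled TPM in mutants and 95.9, 98.5 and 113 in wild types (log2 fold change -0.13, limma adjusted P 0.49). The related enzyme genes tyrp1a and tyrp1b were at -0.51 and -0.08 (limma adjusted P 0.11 and 0.70), with no overlap between genotypes for tyrp1a. pmela and pmelb, which build the fibrils of the melanosome, were at -0.17 and 0.49 (limma adjusted P 0.51 and 0.11). The pigmented epithelium of the retina, which does not come from the crest, makes melanin with the same enzymes. None of the 14 tested genes of its list was called, and their median was 0.21, or -0.07 as deposited. The share of the melanin transcripts that came from that epithelium was not tested.

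A further 9 crest and pigment genes in the table were under the filter of 1 TPM in 3 libraries and could not enter the fit. For 5 of them, mc1r, plin6, csf1ra, ltk and akap12a, every mutant library was lower than every wild-type one (two-sided exact permutation p 0.1 each, the smallest possible). Among all tested genes 13.8% had this order, and the share among genes under the filter was not computed. mc1r, a melanocortin receptor, had 0.05, 0.03 and 0.03 scaled TPM in mutants, against 1.09, 1.07 and 0.70 in wild types. csf1ra, a receptor that xanthophores need, averaged 0.264 ± 0.127 scaled TPM in mutants and 0.656 ± 0.082 in wild types, and ltk, the receptor kinase that iridophores need, averaged 0.021 ± 0.018 in mutants and 0.140 ± 0.033 in wild types (SD, n = 3 each). kita, the receptor that melanophores need, overlapped at 0.302 ± 0.134 in mutants and 0.375 ± 0.074 in wild types.

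**Figure D3:**
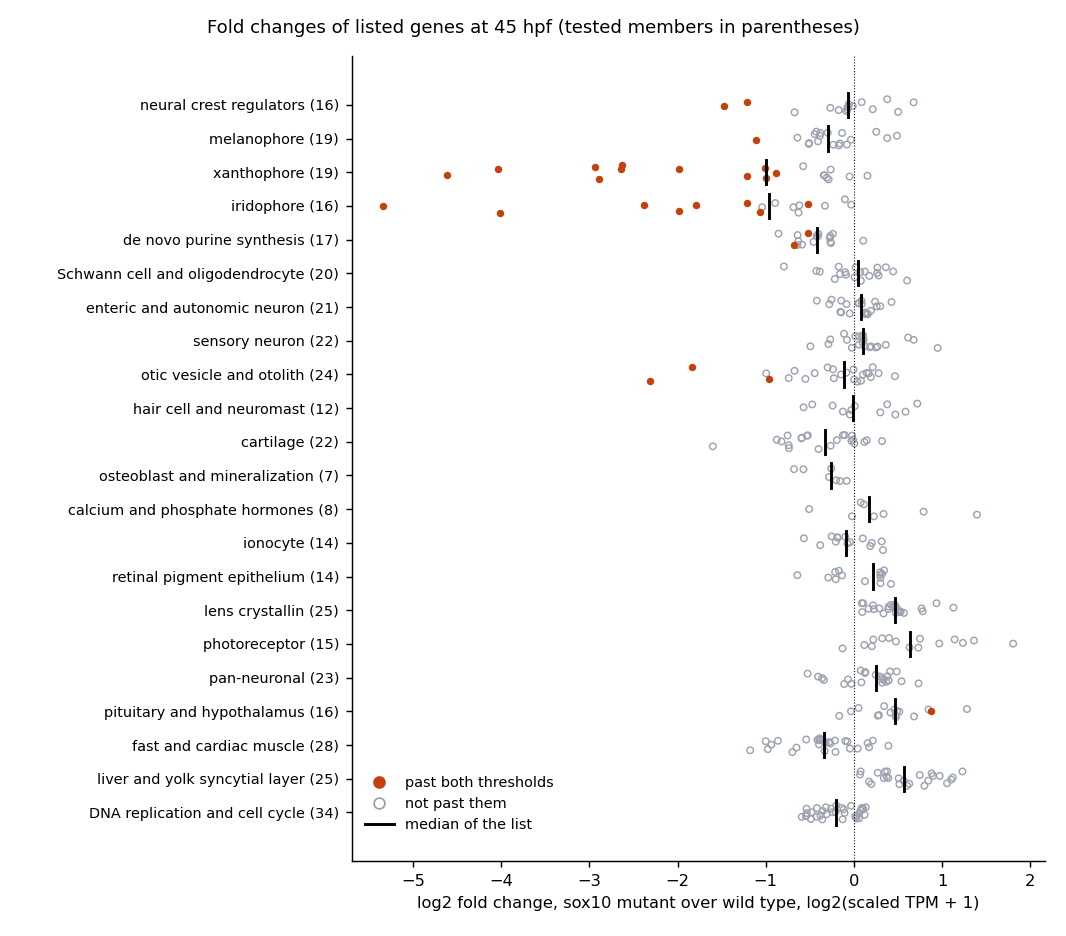
Gene lists at 45 hpf. Each row shows the log2 fold change (sox10 mutant over wild type) of each tested member of a list as a point, with called members filled in red and the list median as a bar. Red points are concentrated in the xanthophore list (11 of 19) and the iridophore list (8 of 16). The lists were chosen with earlier results of these data known.

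Some genes of the ear also fell. In the list of otic vesicle and otolith genes, 3 of 24 tested members were lower and none higher, with a median of -0.12. Log2 fold changes were negative for 14 members and positive for 10. The products of the 3 called genes are extracellular. otomp, an otolith matrix protein gene, had 0.98, 0.49 and 0.82 scaled TPM in mutants, against 8.17, 9.50 and 5.92 in wild types, 10.29-fold lower (log2 fold change -2.32 ± 0.18, limma adjusted P 0.0019). tectb, the gene of beta-tectorin in the membranes that overlie sensory hair cells, had 1.04, 1.25 and 0.94 scaled TPM in mutants, against 5.64, 7.38 and 6.32 in wild types (log2 fold change -1.84 ± 0.12, limma adjusted P 0.00077). stm, whose product starmaker shapes the otolith, had 18.0, 16.1 and 16.6 scaled TPM in mutants, against 32.5, 36.7 and 32.9 in wild types (log2 fold change -0.97 ± 0.09, limma adjusted P 0.0047). The groups did not overlap for any of the 3, and each was called under the 3 other scalings and without any 1 library when the tested genes were held fixed. With the filter redone, otomp and tectb were called in all 6 fits that left out a library and stm in 4.

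Patterning genes of the otic vesicle gave no call. pax2a had a log2 fold change of -0.01, dlx3b of 0.10, hmx3a of 0.21 and pax5 of -0.45 (limma adjusted P 0.98, 0.56, 0.17 and 0.11). The hair cell and neuromast list had none of 12 tested members called in either direction and a median of -0.01. pvalb8 and s100t, its most abundant members, were at 0.72 and 0.47 and did not pass (limma adjusted P 0.066 and 0.15).

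**Figure D4:**
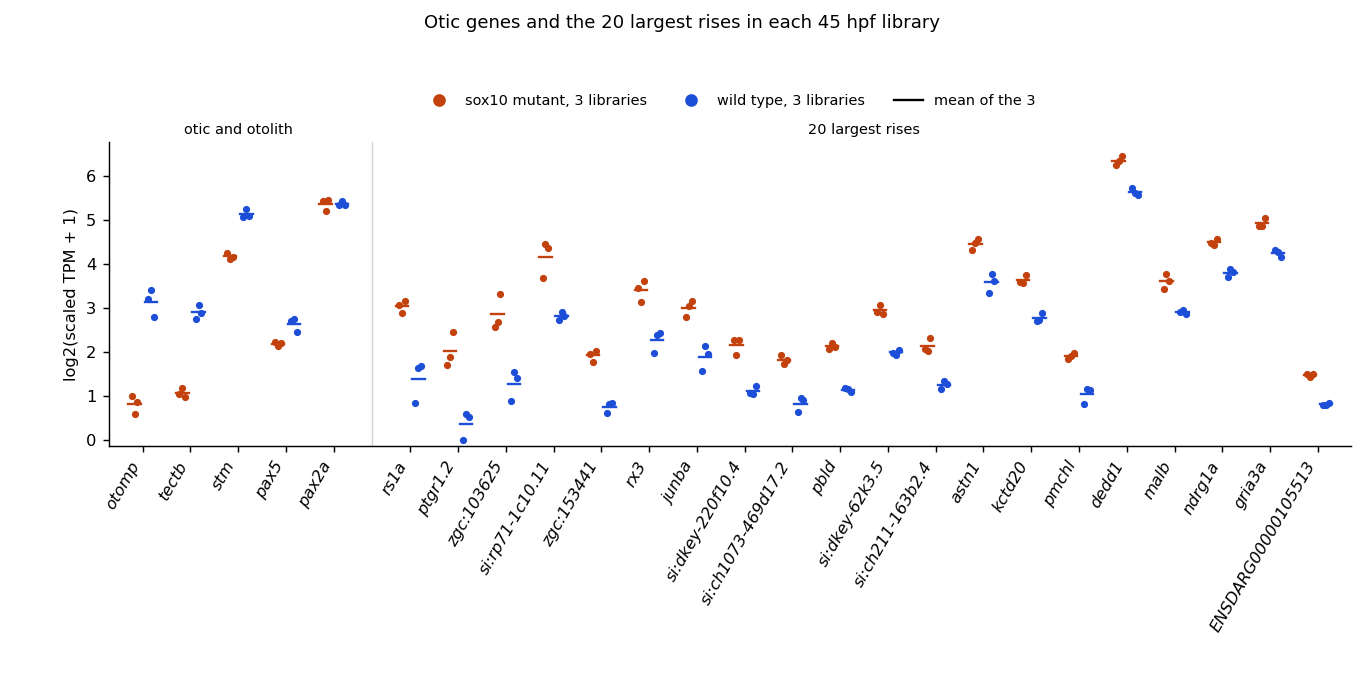
Otic genes and the 20 largest rises at 45 hpf. Points give log2(scaled TPM + 1) of the 3 sox10 mutant and the 3 wild-type libraries and bars their means. otomp, tectb and stm have all mutant points below the wild types, pax2a overlaps, and all 20 rises have all mutant points above.

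The lists of glial and neuronal genes held no called gene at this stage. They are not limited to crest-derived cells, so a change in crest glia or neurons was not tested separately. None of 20 tested genes of Schwann cells and oligodendrocytes was called, with a median of 0.05, while 2 in the lower and 3 in the higher direction had an unadjusted P under 0.05. Over all 17043 tested genes, 2032 reached that P in the lower and 1956 in the higher direction. The log2 fold changes of this glial list ran from -0.79 to 0.60, and 7 of its 27 members in the table were under the filter. The list's most abundant members pou3f1, pmp22a, sox2 and cnp were between -0.17 and 0.08. Enteric and autonomic neuron genes had none of 21 called and a median of 0.09, with 2 lower and 1 higher unadjusted. phox2bb and ascl1a, transcription factors of these neurons, were at 0.13 and 0.05. Sensory neuron genes had none of 22 called and a median of 0.11, with 1 lower and 5 higher unadjusted. neurog1, which starts sensory neurogenesis, was at 0.10 (limma adjusted P 0.64).

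The study's question concerned the skeleton, and no gene of the skeletal and calcium lists was called in the scaled values. Of 22 tested cartilage genes, 9 were lower and none higher at an unadjusted P under 0.05, and the median was -0.33, or -0.62 as deposited. Over all 17043 tested genes, 2032 were lower and 1956 higher at that P. ucmab, a matrix protein gene of cartilage, had 7.41, 7.07 and 3.46 scaled TPM in mutants and 24.6, 20.7 and 14.2 in wild types. Its log2 fold change of -1.60 did not pass (limma adjusted P 0.068), but it was called lower in the values as deposited, as the 1 cartilage gene called there. It was picked after its values were seen. col2a1a, the main cartilage collagen, had 111, 91.6 and 71.9 scaled TPM in mutants and 201, 166 and 137 in wild types (log2 fold change -0.88, limma adjusted P 0.093). The groups did not overlap, yet the libraries spread widely within each genotype. Osteoblast and mineralization genes were mostly too low to test at this stage. The 7 of 15 that could be tested had negative log2 fold changes with a median of -0.26, 3 of them at an unadjusted P under 0.05. The collagen genes col1a1a and col1a2 were at -0.28 and -0.16. Among 8 tested calcium and phosphate hormone genes, none was called and the median was 0.17, with 3 higher and none lower at an unadjusted P under 0.05. stc1l, which the study calls stc1a, is a stanniocalcin gene whose family lowers calcium uptake in fish. The study traces the mutants' calcium deficit to an excess of this hormone. By in situ hybridization it counted more cells with the transcript in mutants, first at this stage. Here stc1l had 2.57, 3.89 and 1.81 scaled TPM in mutants, against 0.67, 0.21 and 0.34 in wild types. All mutant libraries were above all wild-type libraries. However, stc1l reached 1 TPM in the mutants only, so it could enter the test only by being higher in mutants. The log2 fold change of stc1l, 1.40 ± 0.22, fell just short here (limma adjusted P 0.051), and the gene was called in the values as deposited. Missing the threshold does not show that stc1l was unchanged. pth1a, a parathyroid hormone gene, averaged 2.23 ± 0.62 scaled TPM in mutants and 0.867 ± 0.342 in wild types (SD, n = 3 each; limma adjusted P 0.10). Ionocyte genes, thyroid genes and genes of the corpuscle of Stannius and distal pronephros had no call in the scaled values, with medians of -0.09, -0.03 and 0.13. In the corpuscle and pronephros list, which also holds stc1l, 7 of 14 tested genes were higher and 2 lower at an unadjusted P under 0.05. The ionocyte list had 2 higher and 2 lower of 14, and the thyroid list 1 higher and 1 lower of 9.

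Beside these lists, several lists for tissues and processes outside the crest leaned one way with no member called. Among 15 tested photoreceptor genes, 9 were higher and none lower at an unadjusted P under 0.05, with a median of 0.63, or 0.39 as deposited. Over all 17043 tested genes, 1956 were higher and 2032 lower at that P. Lens crystallins were higher unadjusted in 14 of 25, with a median of 0.46, or 0.16 as deposited. Genes of the liver and yolk syncytial layer were higher unadjusted in 12 of 25, with a median of 0.56, or 0.28 as deposited, apoa1a being at 1.12 (limma adjusted P 0.13). Pan-neuronal genes had a median of 0.25 scaled and -0.05 as deposited, so their direction turned with the scaling. In the other direction, 13 of 34 DNA replication genes and 8 of 28 muscle genes were lower unadjusted, and none was higher in either list, with medians of -0.20 and -0.34. Summed muscle transcripts ranged from 22490 to 33928 scaled TPM in mutants and from 32667 to 37870 in wild types, and mutant replicate 1 was the highest of the mutants. Without mutant replicate 1, 1956 of 16688 tested genes were called lower and 1107 higher. Among them, 10 cartilage, 10 muscle and 8 DNA replication genes were lower, of 22, 28 and 34 tested with all 6 libraries. Higher were 39 ribosomal protein, 6 lens and 4 photoreceptor genes, of 68, 25 and 15 tested with all 6. The part of these shifts in the pigment and ear results was not tested. Without that library the xanthophore, iridophore and otic lists had 13, 11 and 8 genes called lower, of 19, 16 and 24 tested with all 6. Over all 6 omissions of a library, with the filter redone as planned, they had 3 to 13, 2 to 11 and 2 to 8. With the tested genes held fixed, they had 7 to 13, 5 to 11 and 3 to 8.

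Most of the 80 falls, 56 of them, lay in none of the 38 lists. The largest was si:dkey-251i10.2, with 0.34, 0.56 and 0.35 scaled TPM in mutants, against 150, 141 and 145 in wild types (log2 fold change -6.69 ± 0.09, limma adjusted P 1.7e-07). It reached 1 TPM in the wild types only, so it could enter the test only by being lower in mutants. ENSDARG00000114516, which carries no symbol, had 4.53, 11.9 and 7.35 scaled TPM in mutants, against 721, 616 and 596 in wild types, 81.2-fold lower (log2 fold change -6.25 ± 0.28). Its wild-type levels were above those of the other 19 of the 20 largest falls. LOC100330864, named in the table as a ribonucleotide reductase regulatory subunit M2, had 1.33, 1.54 and 1.41 scaled TPM in mutants, against 79.3, 68.6 and 63.4 in wild types (log2 fold change -4.88 ± 0.11, limma adjusted P 1.2e-06). rrm2, listed separately under that enzyme's symbol, was at -0.11 (limma adjusted P 0.57). Reads that both copies share may have been split between them, so the level of each is uncertain.

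Further large falls without a list were zgc:91968 and si:ch211-243a20.3 at -3.07 and -3.06, the acyltransferase-like oacyl at -2.29, bricd5 at -2.02 and si:ch211-256m1.8 at -1.99. These genes reached 1 TPM in the wild types only and could enter the test only by being lower in mutants. Of the 20 largest falls, 10 stood in the crest, pigment or purine lists and 9 in no list, otomp being the remaining one. In 32 of the 80 genes all mutant libraries were under 1 scaled TPM, and 3 of them, ENSDARG00000110019, ENSDARG00000113791 and si:ch73-389b16.1, were listed at 0 in all 3. These 3 genes likewise could enter the test only by being lower in mutants. Among smaller falls, picked after their values were seen, were the muscle genes tnni2b.1 and tpm2, which the muscle list does not hold (log2 fold changes -0.71 and -0.64), the receptor notch1a (-0.62), the tyrosine-degrading enzyme fah (-1.24) and 2 vimentin-type intermediate filament genes, LOC572200 and vimr2 (-1.10 and -1.31). tnni2b.1, tpm2 and notch1a were not called as deposited.

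The 26 rises were smaller and 24 of them lay in no list. rs1a, which encodes the retinal adhesion protein retinoschisin, had 7.37, 6.37 and 7.93 scaled TPM in mutants, against 0.78, 2.07 and 2.19 in wild types (log2 fold change 1.66 ± 0.23, limma adjusted P 0.033). rx3, a homeobox gene of the early eye field and hypothalamus, had 9.89, 7.71 and 11.2 scaled TPM in mutants, against 2.91, 4.18 and 4.34 in wild types (log2 fold change 1.14 ± 0.17, limma adjusted P 0.044). pmchl, a hypothalamic neuropeptide gene of the melanin-concentrating hormone family, had 2.54, 2.73 and 2.91 scaled TPM in mutants, against 0.75, 1.21 and 1.19 in wild types (log2 fold change 0.87 ± 0.13, limma adjusted P 0.042). It was the 1 call among 16 tested pituitary and hypothalamus genes, of which 10 were higher unadjusted, with a list median of 0.47, or 0.21 as deposited. Over all 17043 tested genes, 1956 were higher unadjusted.

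junba, an AP-1 transcription factor gene of the immediate early response, had 5.85, 7.23 and 7.88 scaled TPM in mutants, against 1.95, 3.37 and 2.83 in wild types (log2 fold change 1.11 ± 0.17, limma adjusted P 0.046). It was the 1 call among 27 immediate early and heat shock genes, where fosab and egr1 were at 0.89 and 0.43 and did not pass (limma adjusted P 0.40 and 0.27). The glutamate receptor genes gria3a and grin1b rose by log2 fold changes of 0.67 and 0.58 and astn1, which neurons use in migration, by 0.87. grin1b was picked after its values were seen. ptgr1.2, a prostaglandin reductase gene, had 2.23, 2.69 and 4.45 scaled TPM in mutants, against 0.00, 0.50 and 0.42 in wild types (log2 fold change 1.64 ± 0.24, limma adjusted P 0.040). Of the 26 rises, 3 were called under all 3 other scalings, namely ptgr1.2, zgc:153441 and si:rp71-1c10.11. Among the rises, ptgr1.2, zgc:153441 and ENSDARG00000105513 reached 1 TPM in the mutants only. Such genes could enter the test only by being higher in mutants. With the filter redone, neither ptgr1.2 nor zgc:153441 was called in any fit that left out 1 library.

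The later table, whose 25896 lines hold the same values for the 4 dpf and the 7 dpf libraries, allowed a test of whether the mutant effect at 45 hpf differed from the larval one. Because the values are shared, the larval stage cannot be told apart. In a joint fit of 12 libraries with 17403 genes, the effect differed for 62 genes, or 0.356% of those tested, by limma's interaction term at the same thresholds. This count was 3468 without larval mutant replicate 2 and between 15 and 82 without any other single library. Of the 80 genes lower at 45 hpf, 65 could be fitted. Of these, 58 had a negative larval log2 fold change, 33 were called lower and 2, crestin and nme4, were called higher in larvae. The effect differed by the interaction test for 17 of them, 11 from the crest, pigment and purine lists. These genes were chosen by their 45 hpf values, which the interaction test uses again. That choice favours differences with the larger effect at 45 hpf. The shares of larval signs and larval calls among all 17403 genes were not computed. The larval counts given here and below thus have no background rate beside them.

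gch2 had a joint log2 fold change of -4.56 at 45 hpf and -0.75 in larvae, a difference of -3.81 ± 0.29 (limma adjusted P 0.00015). slc2a11b was at -2.58 at 45 hpf and -0.39 in larvae, and pnp4a at -1.95 and -0.32. defbl1 and apoda.1 were far lower at both stages, at -5.21 and -3.90 at 45 hpf and -2.85 and -2.54 in larvae, and still differed. crestin was at -1.43 at 45 hpf and 0.65 in larvae, where it was called higher (limma adjusted P 0.010). tectb was at -1.78 at 45 hpf and 0.36 in larvae, where it was not called (limma adjusted P 0.16). mlpha was the exception among the 17, at -1.05 at 45 hpf and -2.29 in larvae, the larger value being the larval one. Its wild-type mean at 45 hpf was 1.64 scaled TPM, which limits how far it can fall on the log2(scaled TPM + 1) scale. A larger mutant effect in larvae is therefore not shown. The same limit holds for other genes near 0 TPM in mutants, such as defbl1 and apoda.1, for which a weaker effect in larvae is not shown. Genes such as uraha, lypc and bscl2l had larval values of -2.101, -2.18 and -2.07, and the interaction test gave no call for them. All 26 genes higher at 45 hpf could be fitted, 25 had a positive larval log2 fold change, 15 were called higher in larvae and none differed by the interaction test. pmchl was the gene with a negative larval value, -0.02.

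**Figure D5:**
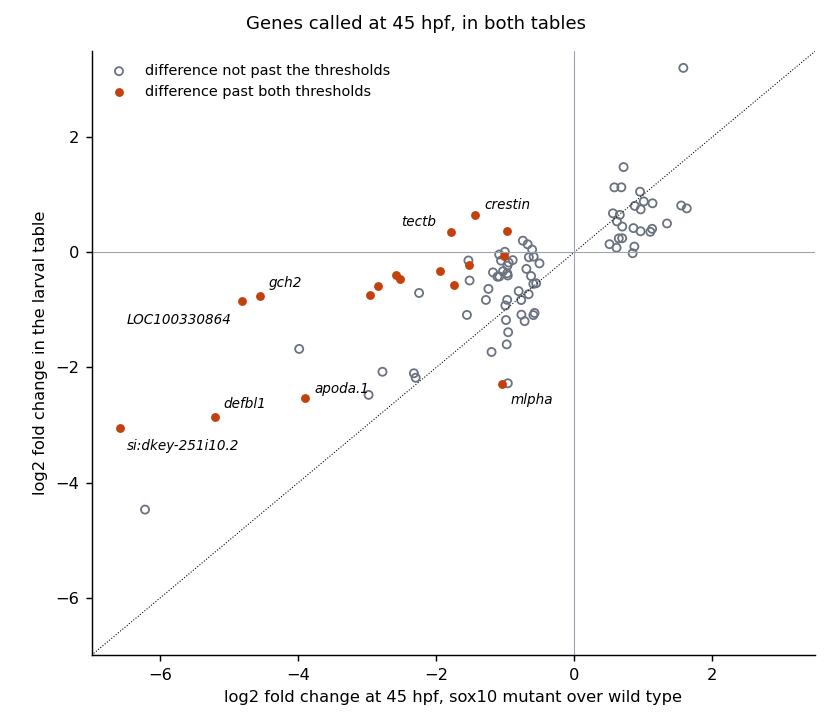
Log2 fold changes (sox10 mutant over wild type) of genes called at 45 hpf, with 45 hpf on the horizontal axis and the larval table on the vertical axis, from the joint fit of 12 libraries. Filled points are the 17 genes whose effects differ, most of them nearer to 0 in larvae, with mlpha on the other side of the dotted line of equal effects. Genes were chosen by their 45 hpf values, which favours larger effects on the horizontal axis.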

How the data were processed

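The methods describe RNA extraction from pooled whole animals, poly-A stranded libraries, paired-end sequencing, trimming and kallisto quantification on Galaxy, and the submitters' notes name Trimmomatic 0.39, kallisto and the GRCz11 build. The authors deposited TPM per gene and library without counts, and ran their own DESeq2 test, which needs counts and was not repeated. The step from transcripts to genes is not given in the sources used here. The labels gave each library's genotype, stage and replicate. The 315 lines that repeated a gene identifier were dropped. Of the genes, 3512 had no symbol in the table, and RefSeq gene names (assembly GRCz12tu) left 1416 unnamed.

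TPM were scaled by the median of ratios over the 6 libraries, as in the authors' DESeq2, and log2(scaled TPM + 1) was fitted with limma 3.58.1 in R 4.3.3 (lmFit and eBayes with an intensity trend, two-sided, Benjamini-Hochberg adjustment over 17043 genes). Calls needed an adjusted P no greater than 0.05 and a 1.25-fold or larger change, as in the study. The larval comparison fitted genotype, stage and their interaction to 12 libraries, for genes that reached 1 TPM in 6 or more. The fit was tested on simulated data. Alternatives were no scaling, quantile normalization, removal of genes above 10000 TPM, a pseudocount of 0.1, other filters, a replicate block, robust and untrended variances, other fold minimums and leaving out each library. Genes were named if they stood in 1 of 38 lists of textbook markers, if the study names them, or if they were among the 20 largest called falls or rises. For lists without a call, examples are the most abundant members. The genes, lists and tests were chosen with earlier results of these data known. The larval values came from the table labelled 7 dpf, since the header of the other was damaged.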

Additional observations from a re-analysis of the deposited data

Results flagged for a closer look

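Genes called lower at 45 hpf stood out because the mutant effect there differed from that in the larval table by the interaction test of limma, whose adjusted P lay at or under 0.05. The genes were chosen by their 45 hpf values, which this test uses again, so larger effects at 45 hpf were favoured. The difference given is the log2 fold change at 45 hpf minus that in larvae, from the joint fit. It was -3.97 for LOC100330864, -3.81 for gch2 and -3.54 for si:dkey-251i10.2, with standard errors of 0.25, 0.29 and 0.26. Among xanthophore genes it was -2.25 for slc22a7a, -2.19 for slc2a11b and -2.07 for aox5. Among iridophore genes it was -2.36 for defbl1, -1.63 for pnp4a, -1.36 for apoda.1, -1.17 for gpnmb and -0.96 for fhl2b. The otic gene tectb had a difference of -2.14 and the crest gene crestin of -2.09, and both had positive larval values. si:ch211-243a20.3, which has no list, had a difference of -2.22, the nucleoside diphosphate kinase gene nme4 of -1.35 and the nucleobase and ascorbate transporter family gene slc23a4 of -1.31. mlpha was the gene with a positive difference, 1.24. Its low wild-type level at 45 hpf limits the fall on the log2 scale used, so a larger effect in larvae is not shown. The same limit holds for genes near 0 TPM in mutants, such as defbl1, apoda.1 and aox5. Their fold changes depend on the wild-type level, so a weaker mutant effect in larvae is not shown for them. The larval libraries came from a table whose stage is uncertain, and the count of such genes over all genes tested, 62, was 3468 without larval mutant replicate 2.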

How the results depend on the processing

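The TPM keep no depth, so counting error is not covered, and no read-level test could be run. Called genes kept their direction in every alternative in which they could be fitted. The 80 falls became 85 as deposited, 88 under quantile normalization and 86 without genes above 10000 TPM, and 59 of them were called under all 3. The 26 rises became 10, 49 and 5, of which 3 of the original ones were called under all 3. The number of rises was 14 without a filter and 8 with a 2-fold minimum. Requiring a mean of 5 TPM left 24 falls and 5 rises. Leaving out 1 library gave 11 to 1956 falls and 0 to 1107 rises, the extremes being without wild-type replicate 2 or 3 and without mutant replicate 1. With the tested genes held fixed, chosen after seeing the data, it gave 1959, 40, 43, 41, 30 and 35 falls and 1106, 2, 3, 7, 1 and 0 rises, for mutant replicates 1 to 3 and wild-type replicates 1 to 3 in turn. The 62 differences between stages became 683 under quantile normalization, 262 without genes above 10000 TPM, 182 with a pseudocount of 0.1, 143 with a mean of at least 5 TPM and 15 to 3468 without 1 library. The causes were not tested. The labels do not say whether libraries with the same replicate number were collected together. The deviations of same-numbered libraries had correlations across genes of -0.31, -0.25 and 0.01, which cannot decide this with 3 libraries per genotype. A fit with the replicate number as a block gave 27 falls, 1 rise and 3 differences between stages. The exact permutation p of sox10 was 0.4 scaled and 0.2 as deposited, and the count of crest and pigment genes under the filter with all mutants below all wild types was 5 scaled and 6 as deposited. 8 falls, namely ENSDARG00000114516, LOC100330864, gch2, PTS, slc2a11b, uraha, pnp4a and crestin, were called under all 17 alternatives other than those with the tested genes held fixed, and no rise was.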
